A study of Mus musculus with 21 samples.

Results

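Twist1 and the 3 E-protein genes Tcf3, Tcf4 and Tcf12 were followed as 4 rows, found by exact gene symbol, among the 48321 symbols of each count table. All 4 passed the filter on low counts. RNA-seq was done on 21 samples of embryoid bodies, in which mouse embryonic stem cells differentiate as floating aggregates, taken on day 3. They came from A2loxCre cells, labelled strain C57BL/6, in which a construct sits behind a promoter that doxycycline switches on, and they formed 7 groups of 3. The parental group was A2loxCre without a construct, treated with doxycycline. A line carrying the TWIST1 monomer was measured without doxycycline (uninduced monomer) and with it (monomer). The other 4 groups, all given doxycycline, carried the TWIST1 homodimer, TWIST1-TCF3, TWIST1-TCF4 or TWIST1-TCF12, each a dimer made as 1 construct. Induction lasted 16 h. Whether a line is a single clone, and which isoform or species a construct encodes, is not given in the sources used here. The labels also do not say whether samples of a group came from separate cultures, so p-values measure the spread between these samples, which may be technical. Every line measured comes from the same A2loxCre stock, but the parental and the uninduced monomer group differ in doxycycline as well as in the construct.

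TWIST1 is a basic helix-loop-helix (bHLH) transcription factor that binds E-box DNA sequences only as a dimer. Its partner can be another TWIST1 molecule or an E-protein, one of the widely expressed bHLH factors encoded by Tcf3, Tcf4 and Tcf12. ID proteins have the helix-loop-helix without the basic region and sequester E-proteins, so the supply of partners is one way in which bHLH dimers are known to be controlled. TWIST1 is best known for its part in mesoderm, the cranial neural crest and epithelial-mesenchymal transition.

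Because a construct and the gene's own mRNA share coding sequence, a count of Twist1 or of a partner gene is the sum of both. The part coding for the bHLH is where the family members are most alike, so it is shown for the nearest relatives. In each pair below, capitals mark bases identical between the pair.
Twist1: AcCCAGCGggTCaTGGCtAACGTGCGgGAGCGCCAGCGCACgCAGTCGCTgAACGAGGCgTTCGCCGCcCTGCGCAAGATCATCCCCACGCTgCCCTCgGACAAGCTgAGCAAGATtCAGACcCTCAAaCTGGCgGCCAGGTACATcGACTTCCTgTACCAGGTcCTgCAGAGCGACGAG
Twist2: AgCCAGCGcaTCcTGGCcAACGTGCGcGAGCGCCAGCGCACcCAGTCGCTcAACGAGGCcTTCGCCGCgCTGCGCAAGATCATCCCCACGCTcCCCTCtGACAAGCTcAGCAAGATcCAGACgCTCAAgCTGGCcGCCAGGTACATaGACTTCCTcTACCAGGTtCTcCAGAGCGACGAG
Tcf3: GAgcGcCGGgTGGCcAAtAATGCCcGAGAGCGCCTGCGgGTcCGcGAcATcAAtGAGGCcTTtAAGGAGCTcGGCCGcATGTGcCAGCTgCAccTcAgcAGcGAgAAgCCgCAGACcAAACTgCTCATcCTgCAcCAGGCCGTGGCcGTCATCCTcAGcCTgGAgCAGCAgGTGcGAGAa
Tcf12: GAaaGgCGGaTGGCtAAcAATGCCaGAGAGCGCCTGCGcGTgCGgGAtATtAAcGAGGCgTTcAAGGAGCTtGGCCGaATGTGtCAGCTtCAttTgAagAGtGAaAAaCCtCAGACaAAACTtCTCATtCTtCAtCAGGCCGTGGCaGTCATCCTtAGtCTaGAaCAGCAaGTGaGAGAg
These stretches of 180 bases span bases 334 to 513 of the Twist1, 196 to 375 of the Twist2, 1642 to 1821 of the Tcf3 and 1801 to 1980 of the Tcf12 coding sequence, counted from the first base of the start codon. Twist1 and Twist2 were identical at 88.3% of the bases, with a longest shared run of 23 bases. Tcf3 and Tcf12 shared 77.2%, Tcf3 and Tcf4 83.3%, and Tcf4 and Tcf12 79.4%, whereas Twist1 shared 40.0% to 43.9% with the 3 E-protein genes. Over the whole coding sequences, 0 of 569 windows of 50 bases in Twist1, 0 of 1910 in Tcf3, 0 of 2027 in Tcf4 and 0 of 2069 in Tcf12 occurred in a transcript of another gene. Twist2, the closest relative, was nearly silent, with group means between 0.036 and 0.44 CPM, read counts scaled by library size. The symbols were also checked against Tcf7l1 and Tcf7l2, Wnt-pathway factors that once carried the names Tcf3 and Tcf4. Tcf7l1 had group means between 93.0 and 113 CPM and Tcf7l2 between 8.42 and 13.1 CPM, and neither was highest in the group whose old name it shares.

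Twist1 lies at chr12:33957671-33959829 on the plus strand and Tcf3 at chr10:80409514-80433647 on the minus strand (GRCm38, GENCODE M21). Tcf4 lies at chr18:69343356-69689079 on the plus strand and Tcf12 at chr9:71842688-72111871 on the minus strand. Their longest annotated coding sequences are 618, 1959, 2076 and 2118 bases. The exons of these genes overlap no exon of another annotated gene. Total counts per sample ran from 6648842 to 15999693, and 18474 to 20883 genes had at least 1 count. A count of 3, taken as the smallest level that can be read, equals 0.188 to 0.451 CPM. Differences were tested with edgeR's quasi-likelihood F-test over 14311 genes and called at a Benjamini-Hochberg adjusted p under 0.05. A pair of libraries stood apart from their groups. Sample 1 labelled TCF12 dimer deviated from the others of its group by exon length, with a Spearman's rho over 13909 genes of -0.575 where 18 samples outside the group gave -0.26 to 0.281, so that long transcripts were low. Sample 1 of the uninduced monomer had 5.81% of its counts on 8 symbols rich in ribosomal or other structural RNA sequence, against 0.187% to 0.416% in 19 other samples and 0.946% in sample 1 labelled TCF12 dimer. Several calls and counts that 1 of these libraries decides are also given without it. The numbers of genes called in the gene lists come only from the fit of all 21 samples. All 7 epiblast markers, among them Pou5f1 and Sox2, were detected in every group, with a summed level of 2082 to 4324 CPM. Primitive streak markers summed to 210 to 247 CPM in parental samples and to 26.4 to 42.6 CPM in the 18 others.

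Twist1 was raised in all 5 induced groups, and to very different levels. Parental samples 1 to 3 held 8.94, 8.02 and 7.37 CPM, and uninduced monomer samples 4.39, 5.65 and 5.18 CPM. With doxycycline the monomer line held 647, 607 and 585 CPM and the homodimer line 199, 181 and 166 CPM. The libraries labelled TCF3 dimer held 56.6, 52.3 and 56.5 CPM, the TCF4 dimer line 41.8, 40.4 and 36.1 CPM, and the libraries labelled TCF12 dimer 39.5, 48.3 and 39.0 CPM. The ranges of the monomer, the homodimer, the TCF3 group and the parental line did not overlap one another, whereas those of the TCF4 and TCF12 groups did overlap. In RNA of whole embryoid bodies, fewer cells that express a gene and less RNA per cell cannot be told apart. Within the monomer line doxycycline raised Twist1 by a log2 fold change of 6.90 ± 0.13 SE (adjusted p 1.01e-17), in a comparison where 2.00% of tested genes were called. The order of the levels was monomer, homodimer, TCF3, TCF12, TCF4. The step from the homodimer to the TCF3 group was not tested; their samples did not overlap. The homodimer was below the monomer by a log2 difference of -1.75 ± 0.093 SE (adjusted p 1.29e-10; 18.5% of genes called). The differences from the monomer were -3.47 for TCF3 (22.1% called), -3.96 for TCF4 (27.4% called) and -3.86 for TCF12 libraries (33.5% called), with adjusted p at most 3.88e-14. TCF3 libraries were above TCF4 libraries by 0.49 ± 0.095 (adjusted p 0.00122; 19.7% called) and above TCF12 libraries by 0.38 ± 0.096 (adjusted p 0.00975; 18.8% called). TCF12 and TCF4 libraries differed by 0.10, with a 95% interval from -0.10 to 0.30 (adjusted p 0.473; 3.24% called), so that an unequal level of up to that size was not detectable.

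Without doxycycline the monomer line held less Twist1 than the parental line, by a log2 difference of -0.66 ± 0.14 SE (adjusted p 0.00195; 19.9% of genes called). All 3 uninduced samples lay below all 3 parental samples, so no leak of the uninduced construct was seen above the parental level. A leak on top of a lower level of the gene's own mRNA could not be seen in this comparison. Against this lower starting point the rises were 5.15 in the homodimer, 3.42 in the TCF3 group, 2.94 in the TCF4 group and 3.04 in the TCF12 group (adjusted p at most 1.78e-12).

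**Figure D1:**
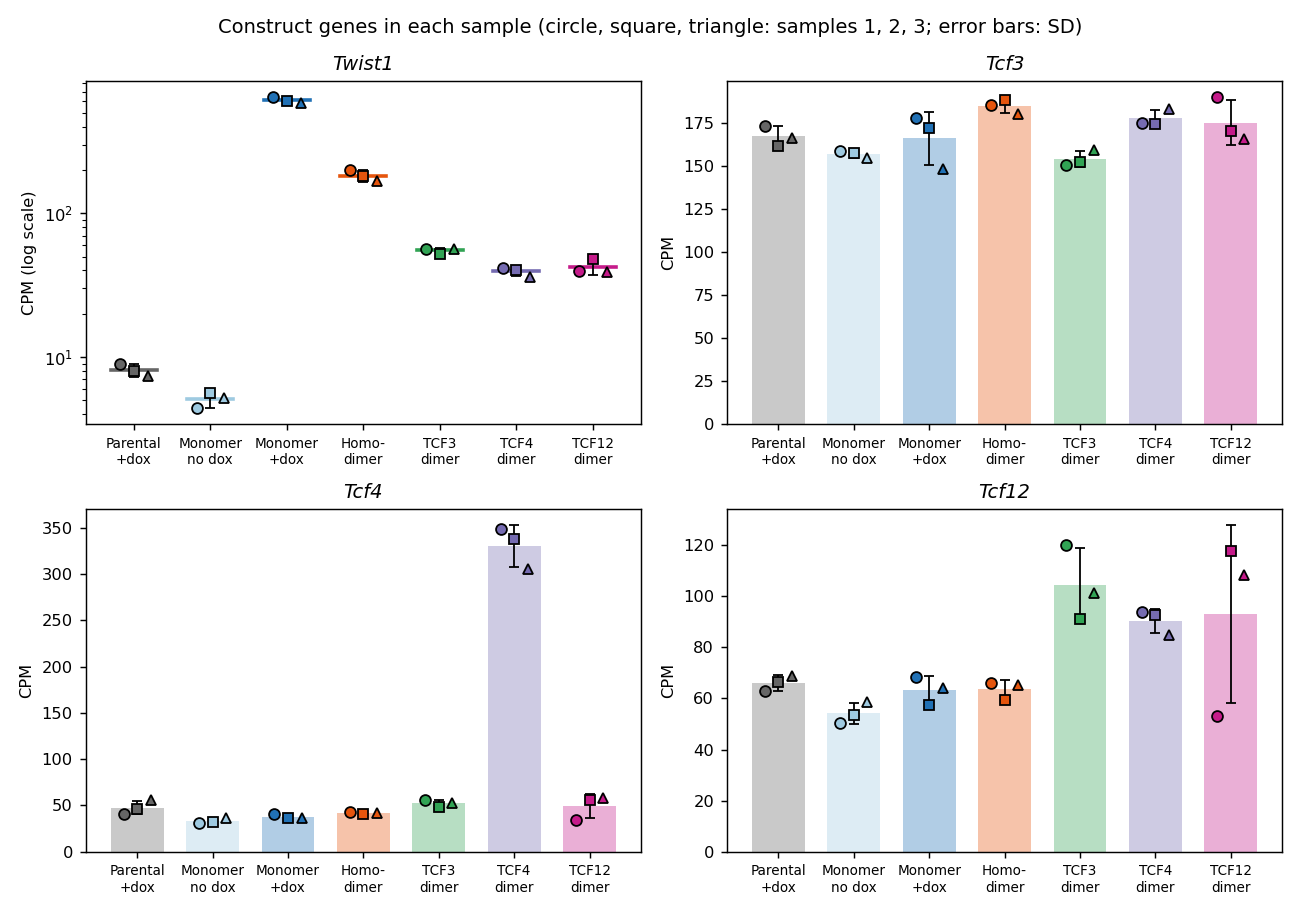
CPM (vertical axis; log scale for Twist1 and linear from 0 for the other genes) of the 4 genes in the 7 groups. Each symbol is 1 sample, bars or lines are means of 3 and error bars are SD; Twist1 falls from 613.0 CPM in the monomer to 39.4 CPM in the TCF4 dimer line, only Tcf4 shows a large rise in the line that carries it, and sample 1 (circle) labelled TCF12 dimer is low for Tcf4 and Tcf12.

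Tcf4, the E-protein gene for which the partner was plainly seen, rose in the line labelled TCF4 dimer. Its samples held 349, 337 and 305 CPM against 41.1, 46.1 and 55.4 CPM in the parental line, with no overlap. The log2 fold change was 2.80 ± 0.15 SE (adjusted p 2.22e-10; 12.9% of genes called). With all samples kept, no other induced group was called against the parental line. Tcf4 was at 42.2 ± 0.84 CPM in the homodimer (SD, n = 3; adjusted p 0.633; 8.84% called), 52.1 ± 3.9 CPM in the TCF3 group (adjusted p 0.56; 28.3% called) and 38.0 ± 2.7 CPM in the monomer (log2 fold change -0.32, adjusted p 0.145; 20.0% called; -0.34 and 0.00284 without sample 1 labelled TCF12 dimer). The TCF12 group stood at 34.4, 56.2 and 58.2 CPM (log2 fold change 0.07, adjusted p 0.758; 27.0% called). Without its sample 1 the difference from the parental line was 0.26 (adjusted p 0.0247). In the uninduced monomer Tcf4 was at 33.2 ± 2.6 CPM, lower than the parental line by a log2 difference of -0.52 (adjusted p 0.0193), or -0.48 (adjusted p 0.0717) without sample 1 of that group. Induction of the monomer changed it by 0.19, with an interval from -0.13 to 0.51 (adjusted p 0.881).

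Tcf3 was the most even of the 4 genes. Group means lay between 154 and 185 CPM. In the libraries labelled TCF3 dimer, samples 1 to 3 held 151, 152 and 159 CPM, all below the parental samples at 173, 162 and 167 CPM. The log2 fold change was -0.12 with a 95% interval from -0.26 to 0.03 (adjusted p 0.239), and without sample 1 labelled TCF12 dimer it was -0.13 (adjusted p 0.0429). These libraries were also below the TCF4 dimer line, at 177.7 ± 4.9 CPM, by -0.21 ± 0.069 SE (adjusted p 0.0432). The homodimer line held 184.7 ± 4.0 CPM, above the uninduced monomer at 157.0 ± 2.3 CPM by 0.23 (adjusted p 0.019; 22.8% of genes called). Against the parental line that group differed by 0.14 (adjusted p 0.263, or 0.041 without sample 1 labelled TCF12 dimer).

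Tcf12, which encodes the E-protein HEB, was higher in all 3 heterodimer groups than in the uninduced monomer line, not only in the group labelled with it. Parental samples held 62.9, 66.5 and 68.9 CPM, and uninduced monomer samples 50.3, 53.4 and 58.7 CPM. The libraries labelled TCF3 dimer held 120, 91.3 and 102 CPM, the TCF4 dimer line 93.7, 92.5 and 85.0 CPM, and the libraries labelled TCF12 dimer 53.2, 118 and 108 CPM. Every sample of the TCF3 and TCF4 groups, and samples 2 and 3 of the TCF12 group, lay above every parental, uninduced, monomer and homodimer sample. Sample 1 labelled TCF12 dimer, the library low for long transcripts, lay below the parental range. Against the parental line the log2 fold changes were 0.66 ± 0.19 SE in the TCF3 group (adjusted p 0.0119), 0.45 ± 0.19 in the TCF4 group (adjusted p 0.132) and 0.50 ± 0.19 in the TCF12 group (adjusted p 0.0548). Without sample 1 labelled TCF12 dimer they were 0.65 (adjusted p 4.06e-08), 0.45 (adjusted p 4.71e-05) and 0.77 (adjusted p 1.55e-08). Against the uninduced monomer all 3 passed with every sample kept, at 0.94 (adjusted p 0.000809; 28.9% called), 0.74 (adjusted p 0.00506; 32.3% called) and 0.78 (adjusted p 0.00291; 37.0% called). The monomer and homodimer lines, at 63.4 ± 5.5 and 63.5 ± 3.7 CPM, did not differ detectably from the parental line (adjusted p 0.885 and 0.936). TCF12 and TCF4 libraries differed by 0.05 in Tcf12, with an interval from -0.34 to 0.43 (adjusted p 0.885), and by 0.32 (adjusted p 0.0147) without that sample. TCF3 and TCF12 libraries differed by 0.16, with an interval from -0.22 to 0.55 (adjusted p 0.551), and by -0.12 without sample 1 labelled TCF12 dimer.

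A joined construct carries both coding sequences on 1 transcript, so the rise of the partner over the parental line can be set beside the rise of Twist1, each per kilobase (kb) of its longest annotated coding sequence. In the TCF4 dimer line Twist1 rose by 50.7 ± 4.7 CPM per kb and Tcf4 by 136 ± 11 CPM per kb (SD, n = 3). The ratio was 2.69, between 2.66 and 2.74 in the 3 samples. An equal rise would have put Tcf4 at 153 CPM, a log2 fold change of 1.68, below the measured interval of 2.48 to 3.11. In the libraries labelled TCF3 dimer Twist1 rose by 76.1 ± 4.0 CPM per kb while Tcf3 stood -6.64 ± 2.31 CPM per kb from the parental mean. An equal rise would have put Tcf3 at 316 CPM, a log2 fold change of 0.92, above the measured interval of -0.26 to 0.03. In the libraries labelled TCF12 dimer Twist1 rose by 55.3 ± 8.5 CPM per kb and Tcf12 by 12.7 ± 16.5 CPM per kb, a ratio of 0.23, or 0.385 without sample 1. There an equal rise would have put Tcf12 at 183 CPM, a log2 fold change of 1.47, above the measured interval of 0.11 to 0.89. Tcf12 rose by 18.1 CPM per kb in the TCF3 group and 11.5 CPM per kb in the TCF4 group, where it is not part of the construct. For these reasons the counts identify the TCF4 dimer line by its partner, but not the TCF3 or TCF12 libraries, which are therefore called by their labels. Construct sequence that differs from the mouse reference would be counted less; it was not tested. With the length of all annotated exons in place of the coding sequence the TCF4 ratio was 0.537, so the ratio depends on the length taken.

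For the homodimer, whose transcript holds 2 Twist1 coding sequences, the rise of 282 ± 27 CPM per kb corresponds to 141 ± 13 CPM per kb for each copy. The monomer rose by 979 ± 51 CPM per kb. Per construct transcript the order of the 5 lines was therefore unchanged, and the homodimer lay 128 to 155 CPM per kb for each copy, above the 71.6 to 78.5 CPM per kb of the TCF3 libraries in every sample.

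**Figure D2:**
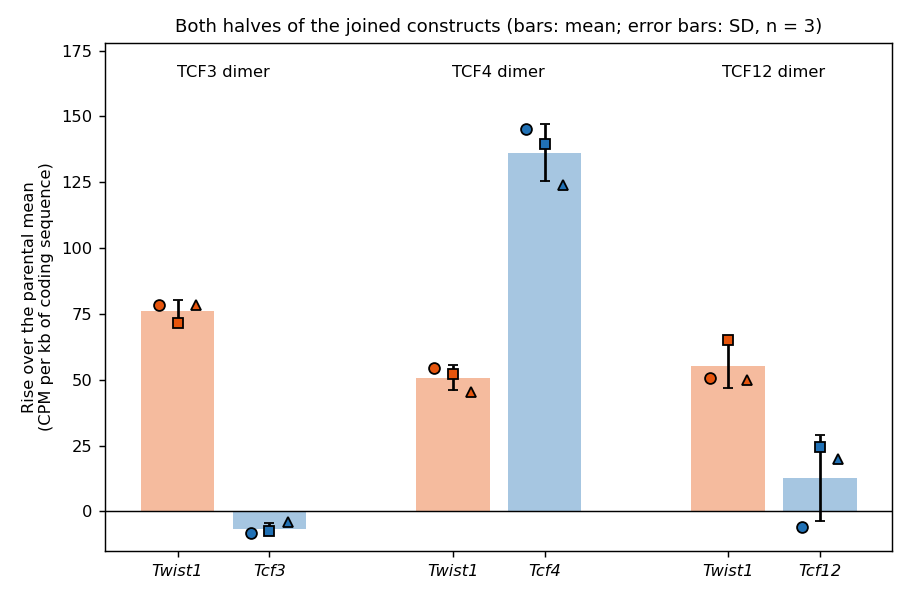
Rise over the parental mean, in CPM per kb of coding sequence, of Twist1 (orange) and of the labelled partner (blue) in the 3 heterodimer groups. Bars are means of 3 samples, symbols single samples and error bars SD; the partner exceeds Twist1 for TCF4 (136 against 50.7), lies below 0 for TCF3 and reaches 12.7 against 55.3 for TCF12.

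Hprt, the purine salvage gene beside which A2lox cassettes are placed, was lower in every construct line than in the parental line. Its level was 82.8 ± 2.9 CPM for parental and 3.81 ± 0.66 CPM for uninduced monomer samples (SD, n = 3; log2 fold change -4.47, adjusted p 3.97e-11). Induction of the monomer raised it to 20.5 ± 1.5 CPM (log2 fold change 2.45, adjusted p 5.14e-07). In the dimer lines it was at 14.6 ± 1.7, 9.24 ± 0.98, 30.1 ± 3.8 and 8.65 ± 3.0 CPM for homodimer, TCF3, TCF4 and TCF12. The order of Hprt among the 5 induced groups, with TCF4 highest, did not follow that of Twist1.

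The balance between Twist1 and its possible partners was described as the Twist1 level over the summed E-protein level, each in CPM per kb of annotated mRNA. In the parental line the E-protein pool was 78.8 ± 2.1 CPM per kb, of which Tcf3 made up 72.5%, Tcf4 14.2% and Tcf12 13.3%. Twist1 was 0.0633 of this pool there and 0.0445 of it in the uninduced monomer. It reached 4.98 ± 0.16 in the monomer line and 1.35 ± 0.11 in the homodimer line. The homodimer value counts both Twist1 coding sequences of each construct transcript. In the heterodimer groups the ratios were 0.416 ± 0.003 for TCF3, 0.158 ± 0.007 for TCF4 and 0.30 ± 0.028 for TCF12. The pool itself was 152.8 ± 4.5 CPM per kb in the TCF4 dimer line, where Tcf4 was 50.8% of it, and 70.0 to 86.3 CPM per kb as the mean of the other groups. These ratios count joined partners in the pool, and a construct without untranslated ends is understated on this scale. The shares within the pool depend on the mRNA length taken (2928, 4250 and 6299 bases for Tcf3, Tcf4 and Tcf12). Before division by length, parental samples averaged more Tcf12 than Tcf4 (66.1 against 47.5 CPM).

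The number of changed genes was then set beside the Twist1 level of each line. The comparisons with the parental line share the parental samples, so they are not independent. Against the parental line 2861 genes were called for monomer, 1265 for homodimer, 4057 for TCF3, 1839 for TCF4 and 3864 for TCF12 samples. The monomer line, with 613.0 CPM of Twist1, thus had fewer calls than the TCF3 libraries at 55.2 CPM, and the homodimer, next below the monomer in Twist1, had the fewest. In fits of only the groups compared the fewest were those of the TCF12 libraries, 824 against 3113 for the homodimer, so this order depends on the fit. The uninduced monomer, with 5.07 CPM of Twist1, already differed from the parental line by 2854 genes. Against the uninduced monomer the monomer differed by 286 genes, the homodimer by 3259, the TCF3 group by 4133, the TCF4 group by 4620 and the TCF12 group by 5302, so that on this baseline the line with most Twist1 had the fewest calls (179 without sample 1 of the uninduced monomer). Only the monomer shares its line with that baseline. Without sample 1 labelled TCF12 dimer the common spread of the fit (biological coefficient of variation) was 0.0539 and not 0.12, and all counts rose. They were then 5073, 2948, 6700, 4046 and 4367 against the parental line, and 890, 5458, 6870, 7295 and 6955 against the uninduced monomer, in the same order of groups.

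**Figure D3:**
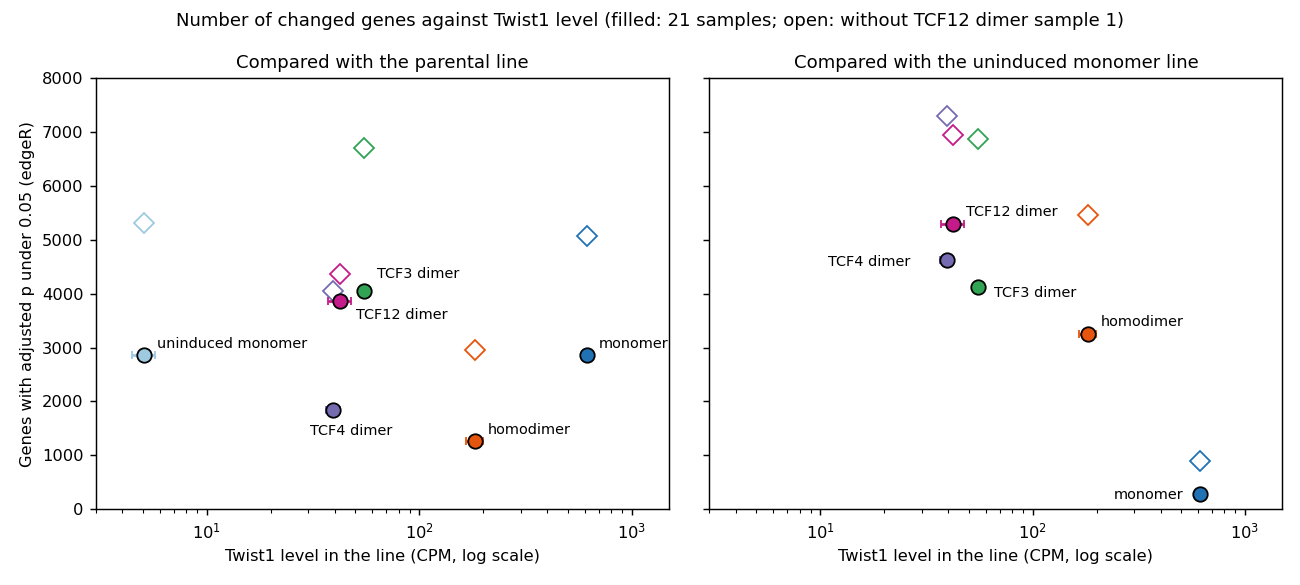
Number of genes with adjusted p under 0.05 (vertical axis, edgeR) against the mean Twist1 level in CPM (horizontal log axis, SD over 3 samples) with the parental line (left) or the uninduced monomer line (right) as baseline. Filled circles are the fit of 21 samples and open diamonds, in the same colour, the fit without sample 1 labelled TCF12 dimer; on the right the counts run from 5302 in the TCF12 libraries to 286 in the monomer.

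The size of the changes gave a similar order. Against the parental line the median absolute log2 fold change over all tested genes was 0.202 for monomer, 0.146 for homodimer, 0.237 for TCF3, 0.162 for TCF4 and 0.275 for TCF12 samples (0.194 without sample 1 of the last). Genes past a 2-fold difference numbered 1100, 600, 1307, 758 and 1163 in the same order of groups. Without sample 1 labelled TCF12 dimer they numbered 1133, 627, 1335, 787 and 1071. Which of the monomer and the TCF12 group had more thus depends on that sample. In the uninduced monomer the median was 0.212 and 994 genes were past 2-fold. Induction of the monomer gave a median of 0.109 and 302 genes past 2-fold. On neither baseline did the number or the size of changes rise with the Twist1 level.

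The genes that induction changed within the monomer line were then followed in the dimer groups against the parental line. The dimer comparisons share the parental samples, and all values come from 1 fit with a shared spread, so independence is not given. Only in its samples is the comparison of induced with uninduced monomer separate from them. Doxycycline is part of that comparison, whereas both groups of each dimer comparison received it. Leaving out Twist1, 217 genes were higher in the induced monomer, with a median log2 fold change of 0.86, and 68 were lower, with a median of -0.63. These sets depend on both libraries that stand apart: 142 and 36 genes were called without sample 1 of the uninduced monomer (140 and 35 of them in the sets above), and 516 and 373 without sample 1 labelled TCF12 dimer (217 and 68 of them). Of the 217, 144 were called higher in the homodimer against the parental line (66.4%), 172 in the TCF3 group (79.3%), 166 in the TCF4 group (76.5%) and 173 in the TCF12 group (79.7%). Over all tested genes the shares called higher were 4.81%, 16.3%, 7.18% and 15.5%. Of the 68 lower genes, 39, 48, 43 and 48 were called lower, where the shares over all genes were 4.02%, 12%, 5.67% and 11.5%. The median log2 fold change of the 217 genes was 0.69 in the homodimer, 1.08 in the TCF3 group, 0.86 in the TCF4 group and 0.95 in the TCF12 group, beside medians over all genes of at most 0.0244. Thus the genes raised with 613.0 CPM of Twist1 in the monomer line stood at a similar or larger median in heterodimer groups with 39.4 to 55.2 CPM. Whether the single medians differ from one another was not tested. Without sample 1 labelled TCF12 dimer, 161, 176, 182 and 183 of the 217 genes were called higher. Of the 142 higher genes chosen without sample 1 of the uninduced monomer, 73.9%, 86.6%, 83.1% and 87.3% were called higher in the dimer groups in the same order, and of the 516 chosen without sample 1 labelled TCF12 dimer 56.2%, 70.0%, 68.6% and 70.2%.

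**Figure D4:**
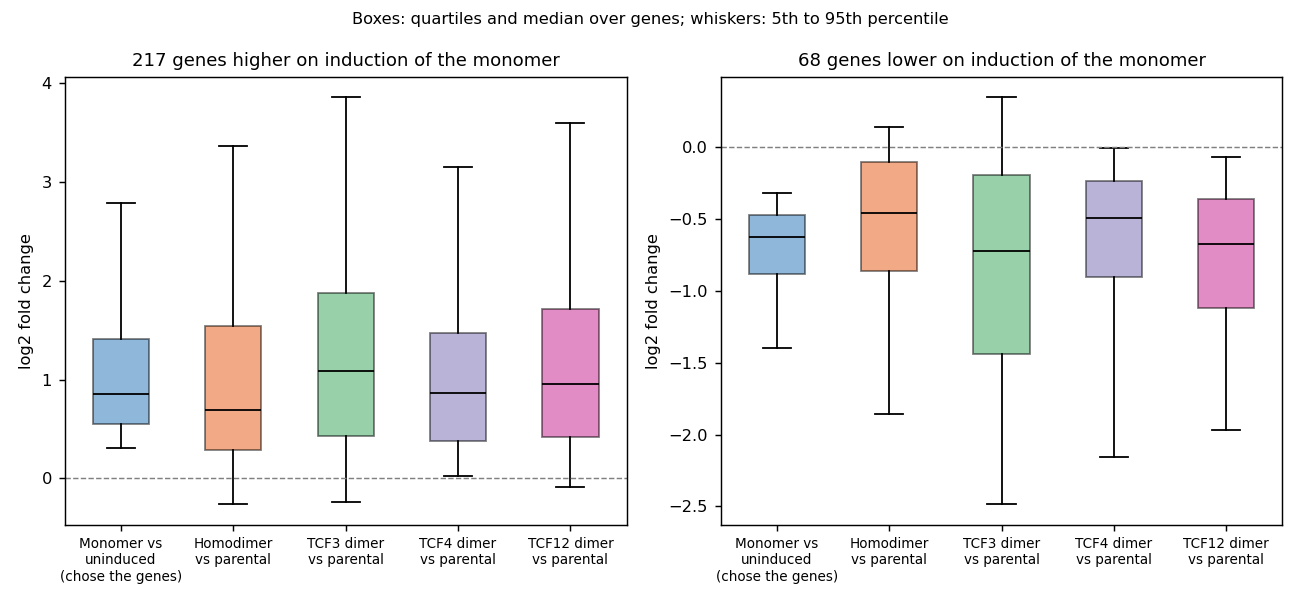
Log2 fold changes of the 217 genes higher (left) and 68 genes lower (right) on induction of the monomer. The first box of each panel is the comparison that chose the genes and the others are the 4 dimer groups against the parental line; boxes show quartiles and median over genes, whiskers the 5th to 95th percentile, and all medians of the dimer groups lie on the same side of 0 as in the monomer.

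The 5 largest rises on induction of the monomer, beside Twist1, were Lax1, Epha3, Gfra3, Slc8a3 and Cd34. Lax1, an adaptor of lymphocyte signalling, had 0 counts in all parental and uninduced samples, where 3 counts allow up to 0.488 CPM. It reached 3.18 ± 0.62 CPM in the monomer, at least 6.52-fold higher than that limit, and 14.3 ± 0.78 CPM in the homodimer, at least 43.8-fold higher than the limit of 0.327 CPM in the parental line. The TCF3 group held 5.79 ± 0.12 CPM, the TCF4 group 3.25 ± 0.79 CPM and the TCF12 group 4.23 ± 1.04 CPM. Thus Lax1 was higher in the homodimer than in the monomer (log2 difference 2.16, adjusted p 1.34e-06) at a lower Twist1 level. Epha3, an ephrin receptor, went from 0.27 ± 0.23 CPM uninduced to 12.4 ± 0.13 CPM in the monomer, and stood at 20.6 ± 0.51 CPM in the homodimer, 19.7 ± 2.3 CPM in the TCF3 group, 7.79 ± 1.38 CPM in the TCF4 group and 13.8 ± 5.2 CPM in the TCF12 group. Cd34, a sialomucin of blood and vessel progenitors, held 5.37, 7.32 and 4.88 CPM in the uninduced monomer and 78.6, 72.4 and 75.3 CPM in the monomer (log2 fold change 3.68, adjusted p 1.26e-11). Its levels were 114, 108 and 118 CPM in the homodimer, 153, 112 and 134 CPM in the TCF3 group and 167, 145 and 126 CPM in the TCF12 group, all above the monomer. The TCF4 group, at 63.3, 59.5 and 53.3 CPM, lay below it (log2 difference -0.36, adjusted p 0.0311).

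Slc8a3, a sodium-calcium exchanger, was lower in the monomer than in every dimer group. It held 1.19 ± 0.55 CPM in the monomer against 7.91 ± 1.25 CPM in the homodimer, 13.6 ± 3.8 CPM in the TCF3 group, 9.79 ± 0.63 CPM in the TCF4 group and 8.13 ± 2.09 CPM in the TCF12 group. From the monomer it differed by a log2 fold change of 2.72 in the homodimer and of 3.50, 3.03 and 2.75 in the TCF3, TCF4 and TCF12 groups (adjusted p at most 8.36e-06). Its rise on induction of the monomer (3.75, adjusted p 0.0207) had an adjusted p of 0.0516 without sample 1 of the uninduced monomer. Gfra3, a co-receptor for artemin, held 1.63 ± 0.36 CPM in the monomer and 3.92 to 5.84 CPM as the mean of each dimer group. The 5 largest falls were Apln, Ccdc160, Pcdh8, Lypd6b and Pdlim3, with log2 fold changes of -1.88, -1.50, -1.43, -1.41 and -1.40. Apln, a ligand of vessel growth, went from 5.54 ± 0.74 to 1.53 ± 0.58 CPM and was lower in all 4 dimer groups against the parental line, by -2.53, -2.75, -2.33 and -2.83. Ccdc160 was called in the TCF3 group (-0.87, adjusted p 0.016) and not in the homodimer (0.07, adjusted p 0.941), the TCF4 group (-0.45, adjusted p 0.28) or the TCF12 group (-0.44, adjusted p 0.187).

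**Figure D5:**
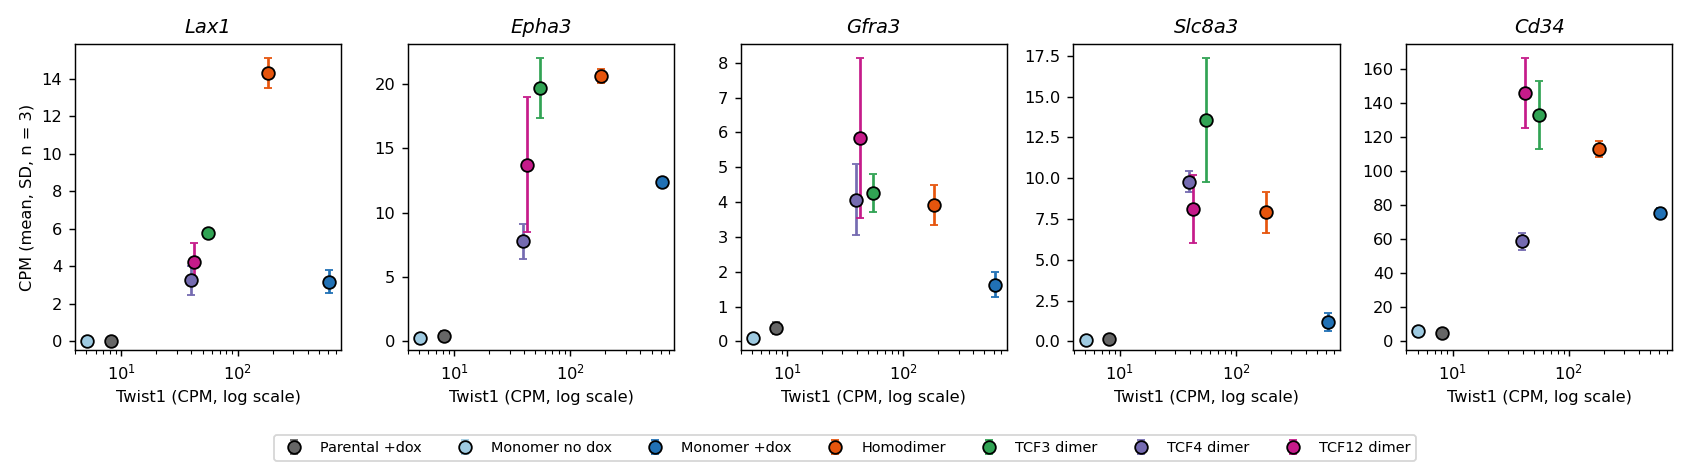
Mean CPM (vertical axes, linear, SD over 3 samples) of the 5 genes that rose most on induction of the monomer, against the Twist1 level of each group (horizontal log axes). For Slc8a3 and Gfra3 the monomer, at 613.0 CPM of Twist1, lies below all 4 dimer groups, and Lax1 is highest in the homodimer at 14.3 CPM.

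Partners and inhibitors of the E-proteins were followed as lists. The Id genes, whose products sequester E-proteins, numbered 4, all tested. In the monomer Id1 and Id2 were higher than in the parental line, and in the homodimer and the 3 heterodimer groups all 4 were. Of all tested genes 10.8% were called higher in the monomer, 4.81% in the homodimer, 16.3% with TCF3, 7.18% with TCF4 and 15.5% with TCF12. Id1 held 32.7, 31.2 and 30.6 CPM in parental samples, 74.5, 74.4 and 65.2 CPM in the monomer and 94.6, 107 and 98.1 CPM in the homodimer. It held 402, 271 and 307 CPM in the TCF3 group, 271, 241 and 216 CPM in the TCF4 group and 1060, 426 and 311 CPM in the TCF12 group. Every induced sample lay above every parental and uninduced sample, and every heterodimer sample above the monomer and homodimer samples, which hold more Twist1. The summed Id level was 96.9 to 107 CPM in the parental line, 79.0 to 94.3 CPM uninduced, 173 to 191 CPM in the monomer and 252 to 276 CPM in the homodimer. In the heterodimer groups it was 680 to 983, 479 to 618 and 706 to 2097 CPM, the highest value being sample 1 labelled TCF12 dimer. Within the monomer line induction raised Id1 by 1.28 (adjusted p 0.0309) and Id2 by 0.97 (adjusted p 0.00785), where 2.00% of all genes were called. Without sample 1 of the uninduced monomer the adjusted p was 0.118 for Id1 and 0.0398 for Id2.

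Tissue-specific bHLH genes, whose products like TWIST1 pair with E-proteins, were 37, of which 14 were tested. Against the parental line 3 were higher in the monomer and 1 in the homodimer. In the TCF3 group 10 were higher and 1 lower, in the TCF4 group 5 and 1, and in the TCF12 group 7 and 1. The shares of all tested genes called in either direction were 20.0%, 8.84%, 28.3%, 12.9% and 27.0% in this order of groups, so the counts in the monomer and homodimer were near the background. The median log2 fold change of the 14 genes was 0.09, 0.20, 0.86, 0.12 and 0.37, against at most 0.0244 over all genes. A gene passes the filter on low counts if enough samples are high, so the heterodimer groups could themselves admit genes to the 14. Hand2 and Neurod4 averaged 0.07 CPM each among parental samples, whereas with TCF3 they averaged 1.59 and 1.37 CPM. Part of the list's counts and medians may therefore reflect the filter, which was not tested. Bhlhe22 stood at 0.77 ± 0.30 CPM in the parental line, 16.3 ± 5.0 CPM in the TCF3 group (log2 fold change 4.38, adjusted p 2.74e-08), 5.87 ± 1.48 CPM in the TCF4 group and 16.4 ± 4.0 CPM in the TCF12 group. Hand1, a factor of early mesoderm and heart, was at 0.36 ± 0.13 CPM in the parental line, 4.47 ± 2.42 CPM in the TCF3 group, 2.65 ± 0.77 CPM in the TCF4 group and 10.6 ± 5.9 CPM in the TCF12 group. Of the 3 monomer calls, Tcf23 and Tcf15 were called in the uninduced monomer too, where Tcf15 was at 45.8 ± 5.5 CPM against 38.6 ± 4.2 CPM in the monomer and 14.1 ± 1.0 CPM in the parental line. Induction within that line raised 1 gene of the list, Neurod1, from 5.66 ± 0.45 to 8.62 ± 1.14 CPM (log2 fold change 0.61, adjusted p 0.0368, or 0.0651 without sample 1 of the uninduced monomer). Of all tested genes 2.00% were called on that induction, in either direction.

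Genes of epithelial-mesenchymal transition and mesenchyme numbered 18, of which 16 were tested. Against the parental line 5 were higher and 3 lower in the monomer, 3 and 1 in the homodimer, 10 and 2 in the TCF3 group, 10 and 0 in the TCF4 group and 10 and 2 in the TCF12 group. Of all tested genes 20.0%, 8.84%, 28.3%, 12.9% and 27.0% were called in these comparisons. The list's median log2 fold change was 0.20, 0.14, 1.42, 0.58 and 1.01. The uninduced monomer already had 4 higher and 4 lower, and induction within the line raised 2, Cdh2 (0.59, adjusted p 0.0231) and Fgfr1 (0.39, adjusted p 0.0266), with adjusted p of 0.135 and 0.045 without sample 1 of the uninduced monomer. In these comparisons 19.9% and 2.00% of all tested genes were called in either direction. Snai1, a repressor of E-cadherin, held 4.80, 6.40 and 5.55 CPM in parental samples, 4.67, 5.40 and 4.84 CPM in the monomer and 4.96, 4.22 and 4.32 CPM in the homodimer. It held 60.6, 34.2 and 41.5 CPM in the TCF3 group, 30.3, 25.6 and 24.8 CPM in the TCF4 group and 78.7, 59.8 and 37.1 CPM in the TCF12 group. All heterodimer samples thus lay above all samples of the groups with more Twist1. Zeb1, another repressor of E-cadherin, was called higher in all 5 induced groups, with 2.64 ± 0.47 CPM for monomer, 4.09 ± 0.13 CPM for homodimer and 12.1 ± 2.2, 4.98 ± 1.17 and 8.64 ± 1.57 CPM in the heterodimer groups, against 1.34 ± 0.26 CPM in the parental line. Of the 5 fibroblast markers, Pdgfrb and Prrx1 are also on the list above, so these lists are not independent. Against the parental line 4 markers were higher and 1 lower in the TCF3 group. In the TCF4 group and in the TCF12 group 3 were higher and 1 lower. The summed level of the markers was 40.0 to 43.9 CPM in the parental line and 32.2 to 43.2 CPM over the monomer and homodimer samples. It was 65.1 to 83.7 CPM in the TCF3 group, 48.5 to 59.1 CPM in the TCF4 group and 71.0 to 76.8 CPM in the TCF12 group, with none of the 5 at 0. Extraembryonic endoderm markers summed to 516 to 596 CPM uninduced, 474 to 517 CPM in the monomer, 286 to 339 CPM in the TCF3 group, 164 to 183 CPM in parental samples and 78.4 to 119 CPM elsewhere, again with none of the 7 at 0. The part of either cell type in the differences between groups was not tested.

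Among the 13361 genes that averaged 1 CPM or more, those whose levels followed a member most closely over the 21 samples were named by Pearson's r of log2(CPM + 0.5). The samples share their groups, so r is given as a description. For Twist1 they were Tex15 (r = 0.881), Zbtb46 (0.878), Ss18 (0.871), Fut1 (0.858) and 4833439L19Rik (0.845). Tex15, a germ cell gene, held 23.7 to 28.7 CPM in the parental line, 18.2 to 25 CPM uninduced, 82.5 to 96.5 CPM in the monomer, 79.8 to 89.0 CPM in the homodimer, 51.2 to 72.6 CPM in the TCF3 group and 56.4 to 59.8 CPM in the TCF4 group. It was therefore above the parental range in these induced groups, but by little more at 613.0 CPM of Twist1 than at 182.3 CPM. The TCF12 group held 40.6, 86.6 and 93.5 CPM. For Tcf12 the closest genes were Sept11 (0.976), Asap1 (0.961), Rps6ka3 (0.952), Cfap97 (0.952) and Zmiz1 (0.944). Without sample 1 labelled TCF12 dimer these 5 values were 0.985, 0.961, 0.951, 0.951 and 0.972. Zmiz1, a coregulator of transcription, held 40.4 to 50.9 CPM as the mean of the 4 groups without an E-protein construct and 102, 92.5 and 88.4 CPM in the TCF3, TCF4 and TCF12 groups, the same split of groups as Tcf12. Tcf4 was followed most closely by Mettl16 (0.844), Map3k4 (0.827), Gabra3 (0.787), Ablim3 (0.785) and Cdh3 (0.784). Tcf3 was followed by Zfp574 (0.863), Unc45a (0.843), Hyal2 (0.842), Atxn7l2 (0.841) and Mapk8ip1 (0.836). Between members r was 0.509 for Tcf4 and Tcf12 and between -0.18 and 0.28 for the other pairs.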

How the data were processed

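Poly(A) RNA-seq libraries (TruSeq mRNA kit, per the labels' protocols) of 21 samples were used. The authors deposited raw read counts per gene symbol, 1 table per sample. The submitters' processing notes name FastQC, TopHat2 and HTSeq and the builds mm10 and GRCm38, with no versions. In 18 of the tables some symbols (25) had turned into dates, and the 3 tables of the TCF12 dimer libraries keep them, so tables were joined by position. This difference in handling cannot be told apart from the group. All rows name a gene.

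The 21 samples entered 1 fit with a mean per group in edgeR 4.0.16 (quasi-likelihood F-test, TMM factors, filterByExpr with a count of 10 and a total of 15; limma 3.58.1, R 4.3.3), adjusted by Benjamini-Hochberg over 14311 genes. CPM were computed here from counts and TMM factors. Total counts of 6648842 to 15999693 set the precision, and limits from a count of 0 (3 counts) cover counting error only. Lengths, coordinates and sequences came from GENCODE M21. The edgeR step was tested on simulated counts, for monomer against parental only and with the same spread for all genes and samples. The other steps were not tested in this way.

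The members and gene lists were chosen with earlier results of these data known. Beside the members, Tcf7l1, Tcf7l2, Twist2 and Hprt, the genes named are up to 4 per list and comparison with the largest change among those called with at least 1 CPM, the 5 genes most like each member, and the 5 largest rises and falls on induction of the monomer. Alternatives were no filter, a filter of 1 CPM in 3 samples, library size only, RLE factors, DESeq2 1.42.0, fitting each pair of groups alone, blocking on the replicate number, counts thinned to the lowest total, exon length, the uninduced monomer as reference and each sample left out. Recomputing the size of changes and the monomer-responsive genes without sample 1 labelled TCF12 dimer, choosing those genes again without it or without sample 1 of the uninduced monomer, and the 8 symbols rich in structural RNA, were chosen after seeing the data.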

Additional observations from a re-analysis of the deposited data

Results flagged for a closer look

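The following differences between lines in a construct gene passed the direct test (edgeR, adjusted p under 0.05), and are given as log2 differences. Twist1 was lower than in the monomer in the homodimer (-1.75), the libraries labelled TCF3 dimer (-3.47), the TCF4 line (-3.96) and the libraries labelled TCF12 dimer (-3.86). Among heterodimers it was higher in the TCF3 libraries than in the TCF4 line (0.49) and than in the TCF12 libraries (0.38). Tcf4 was higher than in the monomer in the TCF4 line (3.12), the TCF3 libraries (0.46) and the TCF12 libraries (0.39). Compared with the TCF4 line it was lower in the TCF3 libraries (-2.66) and the TCF12 libraries (-2.73). Tcf12 was higher than in the monomer in the TCF3 libraries (0.72), the TCF4 line (0.51) and the TCF12 libraries (0.56). Tcf3 was lower in the TCF3 libraries than in the TCF4 line (-0.21). Each construct is present in 1 line, so line and construct cannot be told apart.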

How the results depend on the processing

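Over 72 results on the 4 genes and their alternatives, 1974 of 2088 values kept their side of the threshold, 77 fell below it and 37 newly passed. A change of sign was counted as reversed only where at least 1 of the fits called the value, which occurred 0 times. Values that no fit called could change sign. Tcf12 in the TCF3 against the TCF12 libraries, for example, ran from -0.121 to 0.393 with 1 sample left out. Of 319 alternative counts of called genes, 24 moved by over 1.5 times. Fitting only the groups compared gave 5106 (monomer), 3113 (homodimer), 6674 (TCF3), 4010 (TCF4), 824 (TCF12) and 5029 (uninduced) against the parental line, and 682 (monomer), 5180 (homodimer), 6389 (TCF3) and 2023 (TCF12) against the uninduced monomer. Leaving out 1 sample in turn gave 2192 to 5073 (monomer), 919 to 2948 (homodimer), 3099 to 6700 (TCF3), 1249 to 4046 (TCF4), 2590 to 6165 (TCF12) and 2022 to 5312 (uninduced) against the parental line. Against the uninduced monomer it gave 173 to 890 (monomer), 2440 to 5458 (homodimer), 3022 to 6870 (TCF3) and 3559 to 7295 (TCF4). The highest values came without sample 1 labelled TCF12 dimer, except 6165, which came without its sample 3. The cause was not tested.

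Tcf3 in the TCF3 libraries against the parental line was -0.13 (adjusted p 0.0244) with only these groups, and -0.154 to -0.084 with 1 sample left out. Tcf12 in the TCF12 libraries was 0.51 (adjusted p 0.00802) with no filter, 0.48 (adjusted p 0.0483) in DESeq2, and 0.28 to 0.77 with 1 sample left out. With the uninduced monomer as reference the TCF3 partner ratio was -0.0176 and genes past 2-fold numbered 302 (monomer), 1201 (homodimer), 1514 (TCF4) and 1785 (TCF12). With exon length the TCF4 ratio was 0.537. Monomer-responsive genes past 2-fold were called higher in 74.2% (homodimer), 84.5% (TCF4) and 88.7% (TCF12) of cases, and without sample 1 labelled TCF12 dimer all such genes in 74.2% (homodimer) and 83.9% (TCF4). Chosen again without sample 1 of the uninduced monomer, higher genes were called in 73.9% (homodimer), 86.6% (TCF3), 83.1% (TCF4) and 87.3% (TCF12) of cases and lower genes in 80.6% (TCF12). Chosen again without sample 1 labelled TCF12 dimer, higher genes were called in 56.2%, 70.0%, 68.6% and 70.2% of cases and lower genes in 42.9% (homodimer).

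Same-numbered samples deviated together little on average (mean r 0.0214 over 63 pairs, -0.0102 over 126 others). Of these pairs 8 and 9 had r over 0.1. A mean over all pairs cannot show whether some groups are paired by number, and the main fit used no pairing. The fit with a replicate block called 2863, 1262, 4092, 1828 and 3853 genes against the parental line, in the order above, and 264 for the monomer against its uninduced state.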
